A study of Mus musculus with 5 samples.

Results

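The region described here is the lower-coordinate flank of the Pik3r1 bait on mouse chromosome 13, from 1.5 to 10 Mb away, in libraries of 4C-seq, in which crosslinked DNA is cut and ligated and whatever joined a bait fragment is sequenced. Its members are the DpnII restriction fragments of chr13:91766365-100266364 (mm10), chosen by position alone, with the bait at 101766365. They number 20308 of the 284869 fragments that lie more than 1.5 Mb from the bait, or 7.13%, and of 292200 fragments of the chromosome in all. The flank of the same width on the higher-coordinate side, with 20666 fragments, and the rest of the chromosome beyond 10 Mb, with 243895, served for comparison. Of 172 annotated genes in the flank 75 code for proteins.

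All mice were C57/Bl6. There was 1 library of CD4+/CD8+ double-positive (DP) thymocytes, sorted from the wild-type thymus at 4 weeks of age, 2 of wild-type (WT) skeletal muscle, and 2 of skeletal muscle labelled KO and GRko, taken here to lack the glucocorticoid receptor (GR), as known for this study. The muscle came from mice of 10 to 12 weeks. The labels do not name the promoter of a Cre or the deleted part of the gene. Muscle was used as nuclei of whole tissue, so it holds every cell type of the tissue, and no value here tests the cell identity or the genotype. Tissue, age and sorting differ together between thymocytes and muscle and cannot be told apart. The labels do not say that replicates came from separate mice, and p-values therefore reflect only how far the libraries spread, which may be technical.

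Pik3r1 encodes a regulatory subunit of phosphoinositide 3-kinase, the lipid kinase that acts downstream of the insulin receptor and of antigen receptors. In 4C-seq the frequency of ligation falls with distance from the bait, and beyond the bait's own domain it is set largely by the compartment, active or inactive, in which a region lies. At such distances single fragments are captured sparsely, and the number of fragments with a read over a window or a gene is the usual measure. Glucocorticoids drive loss of muscle mass through the glucocorticoid receptor, and Pik3r1 is one of its target genes in muscle.

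Fragments can be captured only between DpnII sites, whose recognition sequence is GATC, and a site of the second enzyme, Csp6I, which recognises GTAC. Promoters of genes in the flank are shown for the places where the enzymes cut them. Among 80 promoters of 65 flank genes in the RefSeq table (GRCm38.p6, the coordinates of mm10; 250 bases before to 50 after the start), 39 or 48.8% held GATC and 28 or 35.0% held GTAC. Of all 32851 promoters listed there, 48.0% held GATC and 35.8% GTAC. Both motifs read the same on either strand and do not overlap each other. The 250 bases before the start are printed 5′ to 3′, all on the minus strand, with GATC and GTAC in capitals. Tnpo1, at chr13:98891043-98891292, is the start of this gene that holds both motifs; the other start in the table holds neither. Utp15 is at chr13:98262993-98263242, Zfyve16 at chr13:92530811-92531060, Thbs4 at chr13:92794819-92795068 and Cmya5 at chr13:93144725-93144974. Thbs4 and Cmya5 are shown because muscle uses them, and Utp15 and Zfyve16 because a fragment at their promoter was captured, mostly in thymocytes. Tnpo1 is shown because its gene body passed the test between thymocytes and WT muscle with 10 reads per fragment, though not with 1.
Tnpo1: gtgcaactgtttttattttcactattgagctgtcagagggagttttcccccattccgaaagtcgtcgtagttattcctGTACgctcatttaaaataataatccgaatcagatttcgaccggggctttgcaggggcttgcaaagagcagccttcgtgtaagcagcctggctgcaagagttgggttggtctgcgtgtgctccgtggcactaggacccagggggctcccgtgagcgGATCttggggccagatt
Utp15: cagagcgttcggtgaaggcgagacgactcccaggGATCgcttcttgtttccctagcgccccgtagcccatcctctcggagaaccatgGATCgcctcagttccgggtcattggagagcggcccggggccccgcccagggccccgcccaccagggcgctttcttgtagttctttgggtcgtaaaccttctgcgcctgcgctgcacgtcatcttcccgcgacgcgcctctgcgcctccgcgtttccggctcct
Zfyve16: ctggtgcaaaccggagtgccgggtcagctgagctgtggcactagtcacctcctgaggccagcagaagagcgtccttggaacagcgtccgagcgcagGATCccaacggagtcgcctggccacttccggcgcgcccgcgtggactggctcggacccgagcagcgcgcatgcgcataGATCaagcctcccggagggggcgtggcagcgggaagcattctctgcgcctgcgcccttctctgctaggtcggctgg
Thbs4: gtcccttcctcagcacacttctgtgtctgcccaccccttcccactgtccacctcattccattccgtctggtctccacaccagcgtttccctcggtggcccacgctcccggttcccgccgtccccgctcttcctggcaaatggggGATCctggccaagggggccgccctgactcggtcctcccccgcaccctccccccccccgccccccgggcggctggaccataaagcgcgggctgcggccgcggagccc
Cmya5: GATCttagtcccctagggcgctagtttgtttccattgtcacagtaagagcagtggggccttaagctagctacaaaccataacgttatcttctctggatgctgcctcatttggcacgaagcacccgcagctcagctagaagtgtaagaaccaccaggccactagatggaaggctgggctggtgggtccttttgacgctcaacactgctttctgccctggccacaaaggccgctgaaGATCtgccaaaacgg

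The fragments touching these promoters were seldom captured. At Utp15, a factor of ribosomal RNA production, they held 190 reads in DP thymocytes, 2 in WT replicate 1 and 0 in the other 3 libraries. Fragments at the Zfyve16 promoter, an endosomal protein, held 234 reads in thymocytes and 0 in every muscle library. At Thbs4, a matrix protein of muscle and tendon, GRko replicate 1 had 2 reads and the others 0. At Cmya5, a protein of the muscle cytoskeleton, and at the Tnpo1 start shown, all 5 libraries had 0. Of the 39 promoters with GATC, a touching fragment was captured in at least 1 library at 16, and in 2 libraries at 3, those of Utp15, Ankra2 and Gm6109. Utp15 and Ankra2 share the fragment between them. A touching fragment was captured at 7 promoters in DP thymocytes, 9 in WT replicate 1, 3 in GRko replicate 1 and 0 in WT and GRko replicate 2. Some were captured in muscle alone. The fragments shared by Bhmt2 and Dmgdh held 687 reads in WT replicate 1 and 0 in every other library. Thus none of these 39 promoters was read in more than 2 of 5 libraries, too few to compare the groups. Promoters without GATC lie within a single fragment and were not examined singly.

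A fragment is called covered when it holds at least 1 read. Covered flank fragments numbered 1675 for DP thymocytes, 1211 for WT muscle replicate 1, 431 for WT replicate 2, 523 for GRko replicate 1 and 315 for GRko replicate 2. That was 8.25%, 5.96%, 2.12%, 2.58% and 1.55% of the flank's fragments. In the rest of the chromosome beyond 10 Mb 2.44%, 1.68%, 0.898%, 0.734% and 0.743% were covered. The flank was thus covered 3.38, 3.54, 2.36, 3.51 and 2.09 times as densely, lowest in both second replicates. With a minimum of 10 reads per fragment these folds were 3.52, 3.83, 3.64, 3.77 and 3.56, and the low values of the second replicates were gone.

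The second replicates differ from the other 3 libraries in a measured way that touches each count below. They were read over 23 nt after the bait sequence and the others over 29 nt, per the labels. A single read made up 33.6% and 34.9% of the covered flank fragments for WT and GRko replicate 2, against 8.90% in thymocytes, 5.78% in WT replicate 1 and 12.2% in GRko replicate 1. Of these 1-read fragments 27 of 145 in WT replicate 2, 27 of 64 in GRko replicate 1 and 22 of 110 in GRko replicate 2 held 100 or more reads in another library, against 6 of 149 in thymocytes and 1 of 70 in WT replicate 1. WT replicate 2 and both GRko libraries shared covered fragments with each other 4.41 to 6.13 times as often as their coverage alone gives, and every other pair of libraries 1.27 to 2.24 times. With a minimum of 10 reads the same 3 pairs stood at 2.82 to 3.70. Whether reads passed between these libraries was not tested, so some of their covered fragments, above all those of a single read, may not be captures of their own. The part of this sharing in the results was not tested either. The main counts are therefore given with 1 and with 10 reads, and a gene's covered fragments are with 1 read where no minimum is named.

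The flank took a similar part of the distant contacts in all groups. As a share of covered fragments beyond 1.5 Mb it held 17.9% in DP thymocytes (95% Wilson interval 17.1 to 18.7, counting error only), 19.4% and 14.3% for WT and 18.7% and 12.9% for GRko muscle. The mean was 16.8% ± 3.63 for WT and 15.8% ± 4.10 for GRko muscle (SD, n = 2 each). The genotypes overlapped, and replicates of a genotype lay further apart than the genotypes. GRko minus WT was -0.988 percentage points (exact two-sided permutation test, p = 0.667, where 2 against 2 libraries allow no p below 0.333). It was -0.656 between the libraries of 29 nt and -1.32 between those of 23 nt. With 10 or more reads the shares drew together, at 18.3% in thymocytes (17.4 to 19.3), 20.4% and 19.1% for WT and 19.7% and 18.9% for GRko muscle. The difference between genotypes was then -0.477 points (exact p = 0.667).

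Thymocytes lay between the WT muscle libraries with 1 read, 1.06 points above their mean (exact p = 1.0, smallest possible 0.333). With 10 reads they lay below all 4 muscle libraries, 1.45 points below the WT mean (exact p = 0.667). Against all muscle the difference was -1.21 points (exact p = 0.4, smallest possible 0.2). The sign of this difference thus turned with the minimum of reads, and it was -1.51 with 1 read when only libraries of 29 nt were compared.

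**Figure D1:**
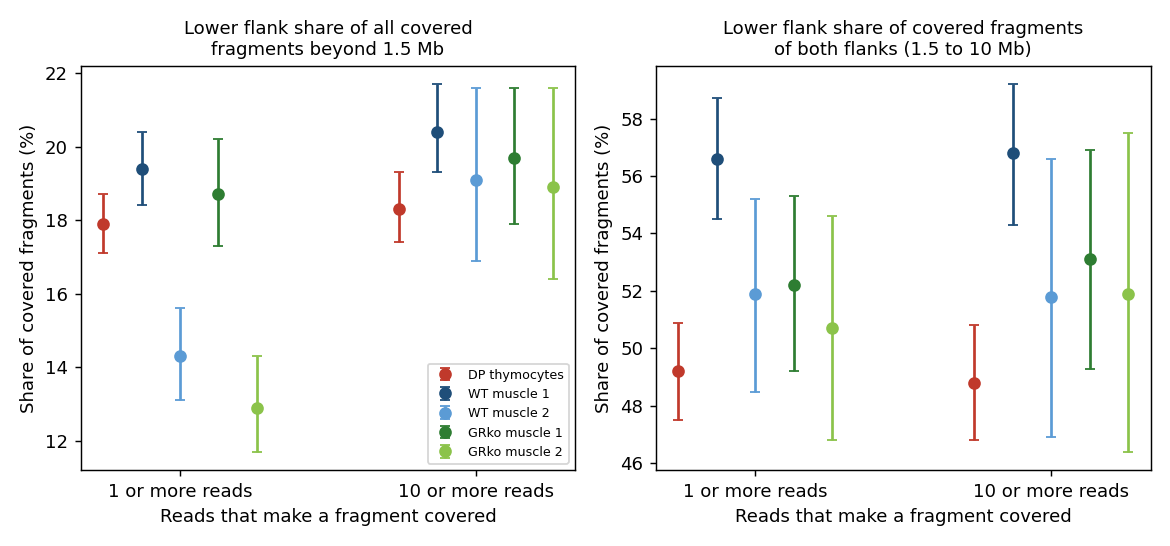
Share of covered fragments in the lower flank (vertical axis, %) among all covered fragments beyond 1.5 Mb (left) and among those of both flanks (right), for fragments with 1 or more and 10 or more reads. Points are single libraries and bars 95% Wilson intervals, which cover counting error only; axes do not start at 0. On the left both second replicates sit below 15% with 1 read and at 19.1% and 18.9% with 10 reads; on the right the thymocyte point is the lowest at both minimums.

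The lower flank's share of both flanks was lowest in thymocytes. Of the covered fragments of both flanks, 49.2% lay in the lower one in DP thymocytes (47.5 to 50.9), 56.6% and 51.9% in WT, and 52.2% and 50.7% for GRko muscle. Thymocytes were below all 4 muscle libraries, also with 10 reads, at 48.8% against 56.8%, 51.8%, 53.1% and 51.9%. The difference from WT was -5.03 points (exact p = 0.667, smallest possible 0.333) and from all muscle -3.65 points (exact p = 0.4, smallest possible 0.2). Neither could pass a threshold of 0.05 in this design, and WT replicate 1 alone was more than 3 points above every other library. GRko differed from WT by -2.77 points (exact p = 0.667), with overlapping libraries. Over these and the distance shares, 9 comparisons were made at each minimum, and the lowest adjusted p was 0.857.

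Contacts fell with distance inside the flank, mostly past its nearest 3 windows. The 3 windows of 500 kb nearest the bait (1.5 to 3 Mb) were covered 1.37 times as densely as the 3 farthest (8.5 to 10 Mb) in DP thymocytes, 1.74 and 2.5 times for WT and 2.5 and 1.32 times for GRko muscle. On the higher-coordinate side the same ratios were 2.67, 3.48, 2.56, 4.67 and 2.60, higher in each library, though barely so in WT replicate 2. With 10 reads the ratios in the flank were 1.47, 1.61, 3.23, 2.53 and 1.87. Ratios of the higher side with 10 reads were not computed. With 1 read the 11 windows between stood at 7.56%, 5.37%, 1.93%, 2.17% and 1.38% covered, against 7.98%, 5.10%, 1.41%, 1.87% and 1.6% in the farthest 3. In thymocytes and GRko replicate 2 the middle was thus no denser than the far end. The nearer 8 windows (1.5 to 5.5 Mb) held 51.2% of the flank's covered fragments in thymocytes, 55.8% ± 4.70 for WT and 54.1% ± 5.14 for GRko muscle (SD, n = 2 each), and none of these differences exceeded the spread (exact p = 0.667 for each against WT). With 10 reads the shares were 51.3%, 55.9% ± 6.05 and 56.8% ± 0.833 (SD, n = 2 each).

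The most contacted window in 4 of 5 libraries was that at 2.5 to 3 Mb, with the genes Fcho2, which acts in endocytosis, Tnpo1, a nuclear import receptor, and Zfp366, a zinc finger repressor. In it 14.9% of fragments were covered in DP thymocytes, 10.8% in WT replicate 1, 6.14% in GRko replicate 1 and 2.94% in GRko replicate 2. In WT replicate 2 the neighbouring window at 2 to 2.5 Mb led, with 4.08%. It holds Ptcd2 and Mrps27, which act in mitochondrial RNA handling and translation, and Map1b, a microtubule protein of neurons. The fewest covered fragments lay in the outermost window, 9.5 to 10 Mb, in WT replicates 1 and 2 and GRko replicate 1, at 3.41%, 1.14% and 1.22%. In GRko replicate 2 they lay at 8 to 8.5 Mb (0.845%) and in thymocytes at 6.5 to 7 Mb (5.22%), around Pde8b, a phosphodiesterase, and Otp, a hypothalamic factor. The window at 4 to 4.5 Mb holds no coding gene, and its share of distant contacts with 1 read was 0.929%, 1.28%, 0.893%, 0.967% and 0.698%. It was the least covered window in none of the 5 libraries.

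**Figure D2:**
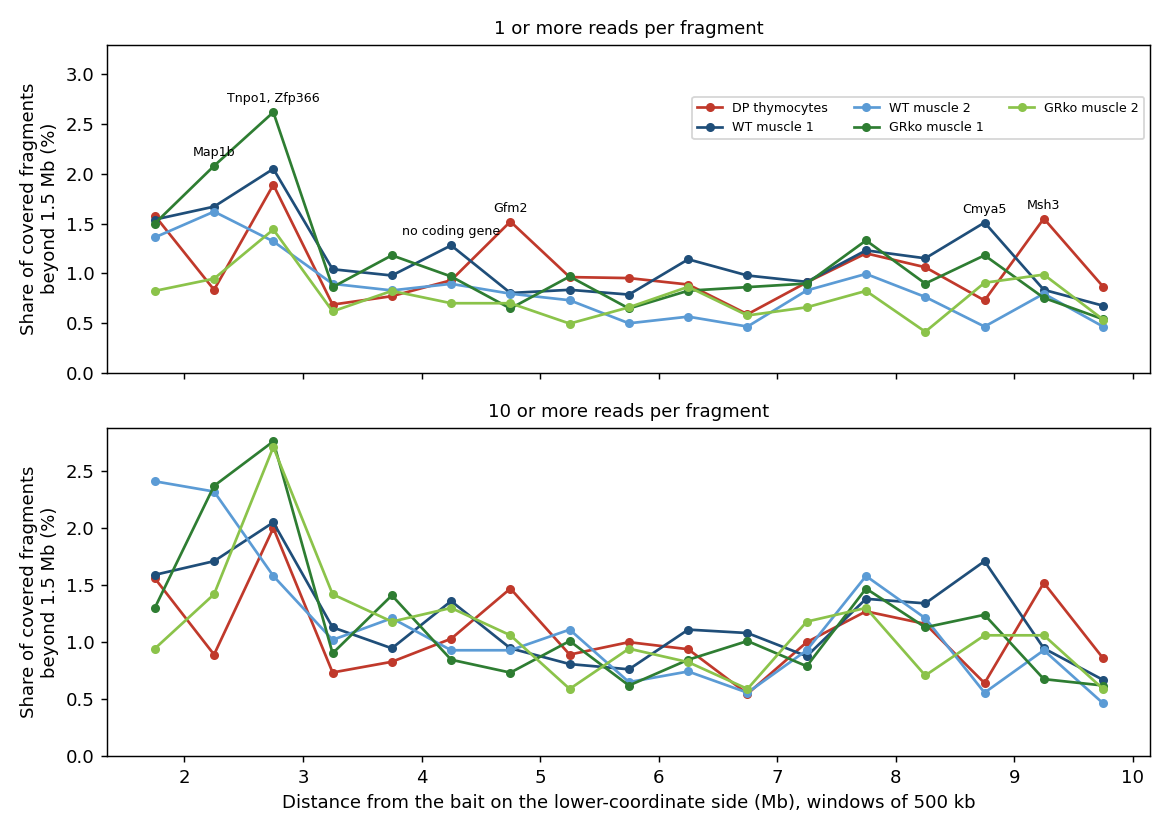
Share of all covered fragments beyond 1.5 Mb (vertical axis, %) in each of the 17 windows of 500 kb, by distance from the bait (horizontal axis, Mb), for fragments with 1 or more (top) and 10 or more reads (bottom). Each line is a library. All lines are highest within 3 Mb of the bait; the thymocyte line is lowest at 2 to 2.5 Mb and highest at 4.5 to 5 and 9 to 9.5 Mb, in both panels.

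Over the 17 windows the profiles of muscle libraries ranked alike and that of thymocytes less so. Spearman's rho was 0.44 to 0.80 for the 6 pairs of muscle libraries, 0.52 within WT and 0.51 within GRko. Between thymocytes and muscle it was -0.01 to 0.36. With 10 reads the ranges were 0.46 to 0.81 and 0.00 to 0.46. Pearson's r overlapped, at 0.50 to 0.91 among muscle libraries and 0.30 to 0.54 between thymocytes and muscle. With 10 reads it was 0.39 to 0.82 and 0.33 to 0.58. These are descriptions over windows that share the fall with distance and, within a library, its depth; the thymocyte library is the deepest of all.

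No window of the flank passed the test between GRko and WT muscle. With edgeR's quasi-likelihood test and Benjamini-Hochberg adjustment over all windows of the chromosome beyond 1.5 Mb, 0 of 17 windows passed 0.05, beside 0 of 225 tested (0.0%). At an unadjusted p under 0.05 the flank had 0 windows and the chromosome 6 (2.67%), and DESeq2 called 0. With 10 reads 0 of 17 passed again (0 of 196, 0.0%), and 2 had an unadjusted p under 0.05, beside 6.63% of all tested. The window at 2.5 to 3 Mb held 2.05% and 1.58% of distant contacts for WT and 2.76% and 2.71% for GRko muscle. Both GRko libraries lay above both WT libraries there, a log2 ratio of 0.50 ± 0.210 (SE, adjusted p = 0.702 by edgeR). The window at 1.5 to 2 Mb, with Smn1 and other genes, held 1.59% and 2.41% for WT and 1.30% and 0.943% for GRko muscle, -0.60 ± 0.277 on the log2 scale (adjusted p = 0.702 by edgeR). Both GRko libraries lay below both WT libraries in 2 of 17 windows and above them in 1, while 15.0% and 16.9% of 213 windows did so on the chromosome.

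With 1 read the windows of smallest p between genotypes were at 8 to 8.5, 3 to 3.5 and 4 to 4.5 Mb among those lower for GRko muscle, with log2 ratios of -0.57 ± 0.394, -0.40 ± 0.396 and -0.41 ± 0.416. Those higher were at 2.5 to 3, 3.5 to 4 and 9 to 9.5 Mb, with 0.25 ± 0.599, 0.14 ± 0.403 and 0.08 ± 0.386 (SE; edgeR, adjusted p = 0.991 for all 6). Standard errors over the 17 windows were 0.362 to 0.599, so these values do not show that the genotypes are alike.

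Between DP thymocytes and WT muscle the outcome depended on the reads asked of a fragment. With 1 read 0 of 17 windows passed the test, beside 21 of 227 (9.25%) on the chromosome. In the flank 2 windows had an unadjusted p under 0.05, beside 56 on the chromosome (24.7%), and DESeq2 called 0. With 10 reads 4 of 17 windows passed, beside 37 of 213 (17.4%), so the flank's share was near that of the chromosome. Of these 4, 3 were lower in thymocytes (9.86% of all tested) and 1 higher (7.51%). At an unadjusted p under 0.05 the flank had 6 (29.6% of all tested). The median log2 ratio of all windows tested was -0.15 with 10 reads. With TMM normalization, which brought it to -0.02, 4 windows passed as well, 2 lower and 2 higher. The fit assumes that the single thymocyte library varies like the muscle libraries.

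The window at 2 to 2.5 Mb, with Map1b and Mrps27, was the clearest. With 10 reads it held 0.891% of distant contacts in DP thymocytes, 1.71% and 2.32% for WT and 2.37% and 1.42% for GRko muscle, so thymocytes lay below all 4 muscle libraries. The log2 ratio to WT was -1.05 ± 0.244 (SE; edgeR, adjusted p = 0.000891). With 1 read the shares were 0.833% against 1.67% and 1.62%, and 2.08% and 0.945%, again below all 4, a log2 ratio of -0.98 ± 0.550 (adjusted p = 0.235 by edgeR). It passed also without WT replicate 1 (adjusted p = 0.0319), and not without either GRko library (0.113 and 0.103) or with DESeq2 (0.998).

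The window at 9 to 9.5 Mb passed in the other direction. It holds Msh3, a mismatch repair protein, with Zfyve16 and Serinc5. Thymocytes had 1.52% of distant contacts there with 10 reads, WT muscle 0.946% and 0.929% and GRko muscle 0.676% and 1.06%, so thymocytes lay above all 4. The log2 ratio was 0.68 ± 0.251 (SE; edgeR, adjusted p = 0.0436). With 1 read it was 0.92 ± 0.427 (adjusted p = 0.141 by edgeR), from 1.55% against 0.833% and 0.794%. With 10 reads the window passed in 3 of 9 alternatives: TMM (edgeR, adjusted p = 0.0193), no filter (0.0416) and all muscle (0.00812). Its call was lost with the replicate number as a block (0.111), without WT replicate 1 (0.498) or 2 (0.0687), without GRko replicate 1 (0.118) or 2 (0.112), and with DESeq2 (0.998).

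The window at 4.5 to 5 Mb showed values of the same kind without passing in the main tests. It holds Gfm2, a mitochondrial translation factor, and Nsa2, a ribosome assembly factor. Thymocytes had 1.47% with 10 reads, against 0.946% and 0.929% for WT and 0.733% and 1.06% for GRko muscle, again above all 4. The log2 ratio was 0.64 ± 0.252 (SE; edgeR, adjusted p = 0.0647). It passed with TMM (0.0296) and against all 4 muscle libraries (0.0202), 2 of the 9 alternatives with 10 reads. With 1 read it was 0.92 ± 0.406 (adjusted p = 0.118 by edgeR). Of 13 alternatives to that test 3 passed: all muscle (0.0348), the replicate number as a block (0.0482) and 2 or more reads (0.0176). The outermost window, 9.5 to 10 Mb, with Rasgrf2 and the muscle creatine kinase gene Ckmt2, had 0.54 ± 0.350 with 1 read (adjusted p = 0.290 by edgeR). Next to the calls that were lower, the window at 3 to 3.5 Mb, with Btf3, had -0.52 ± 0.396 with 1 read (adjusted p = 0.379 by edgeR).

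The calls against WT at 8.5 to 9 Mb and 6.5 to 7 Mb were lost without WT replicate 1. The window at 8.5 to 9 Mb holds Cmya5, Mtx3, Tent2 and part of Thbs4. With 10 reads it had 0.641% in DP thymocytes, 1.71% and 0.557% for WT and 1.24% and 1.06% for GRko muscle. Thymocytes lay between the WT libraries, and the log2 ratio of -1.17 ± 0.271 (SE; edgeR, adjusted p = 0.000891) became 0.20 without WT replicate 1 (adjusted p = 0.915). Thymocytes lay below both GRko libraries. Set against all 4 muscle libraries, this window passed, with a log2 ratio of -1.02 ± 0.262 (SE; edgeR, adjusted p = 0.00196). With 1 read the shares were 0.726%, 1.51%, 0.463%, 1.18% and 0.904%, a log2 ratio to WT of -0.55 ± 0.433 (adjusted p = 0.388 by edgeR). At 6.5 to 7 Mb the values with 10 reads were 0.547%, 1.08%, 0.557%, 1.01% and 0.590%. There -0.84 ± 0.282 (SE; edgeR, adjusted p = 0.0436) became -0.03 without WT replicate 1 (adjusted p = 0.995), and the adjusted p was 0.0964 with TMM. Against all 4 muscle libraries the ratio at 6.5 to 7 Mb was -0.76 ± 0.270 (SE; edgeR, adjusted p = 0.0506). Thymocytes, WT replicate 2 and GRko replicate 2 had almost the same value in this window. Without GRko replicate 1 or 2, or with DESeq2, 0 of the 17 windows passed.

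**Figure D3:**
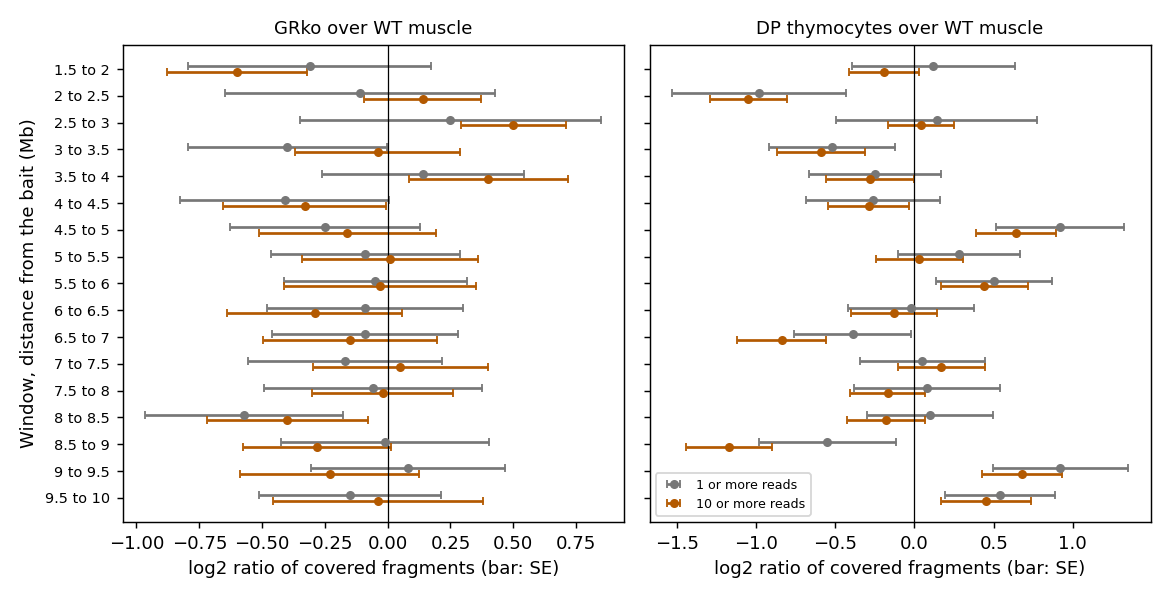
Log2 ratio of covered fragments (horizontal axis) in each of the 17 windows, listed by distance from the bait (vertical axis, Mb), for GRko over WT muscle (left) and DP thymocytes over WT muscle (right); bars are the standard errors of the edgeR fit. The ratios farthest from 0 on the right are -1.17 at 8.5 to 9 Mb and -1.05 at 2 to 2.5 Mb with 10 reads, and -0.98 at 2 to 2.5 Mb and 0.92 at 4.5 to 5 and 9 to 9.5 Mb with 1 read; the horizontal scales differ.

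Against all 4 muscle libraries at once, thymocytes were highest in 5 of 17 windows with 1 read, beside 24.7% of the windows of the chromosome, and lowest in 2, beside 37.4%. With 10 reads they were highest in 4 (23.5% on the chromosome) and lowest in 5 (23.9%). The windows in which they were highest at both minimums were 4.5 to 5, 5.5 to 6, 9 to 9.5 and 9.5 to 10 Mb. Iqgap2, a scaffold protein, and Sv2c, of synaptic vesicles, lie at 5.5 to 6 Mb.

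Of the coding genes, Tnpo1 and Zfp366 passed the test between thymocytes and WT in opposite directions, within the same window, with 10 reads but not with 1. Tnpo1, at 98839019 to 98926384 and 2.88 Mb from the bait, has 196 fragments. With 10 reads 46 were covered in DP thymocytes, 6 and 3 for WT and 5 and 5 for GRko muscle. With 1 read the numbers were 59, 13, 8, 9 and 6. As a share of the distant contacts, thymocytes were above all 4 muscle libraries with 10 reads, with a log2 ratio to WT of 2.08 ± 0.463 (SE; edgeR with Benjamini-Hochberg adjustment, adjusted p = 0.00339) with 10 reads and 1.45 ± 0.427 (adjusted p = 0.169) with 1.

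Zfp366, at 99184823 to 99247032 and 2.55 Mb from the bait, has 146 fragments. With 10 reads 7 were covered in DP thymocytes, 22 and 5 for WT and 5 and 2 for GRko muscle. As a share of the distant contacts thymocytes were below all 4. The log2 ratio was -2.15 ± 0.527 (SE; edgeR, adjusted p = 0.00971), and -1.55 ± 0.505 with 1 read (adjusted p = 0.186), where 12, 28, 8, 9 and 5 fragments were covered. The whole window was even, at 0.04 ± 0.210 with 10 reads (adjusted p = 0.939 by edgeR). Fcho2, next to Tnpo1 and with 30, 24, 7, 6 and 5 covered fragments of 208, had -0.04 ± 0.428 with 1 read.

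These were 2 of 40 genes tested in the flank with 10 reads, beside 3 of 197 on the chromosome (1.52%), and DESeq2 called 0. At an unadjusted p under 0.05 there were 7, beside 17.8% of all tested. Both calls were lost without WT replicate 1, where the ratio of Tnpo1 was 1.35 (adjusted p = 0.827) and that of Zfp366 -2.04 (0.827), and without GRko replicate 1 (0.412 for both) or 2 (0.378 for both). Zfp366 was also lost without WT replicate 2 (0.159), with the replicate number as a block (0.0796) and against all muscle (0.0914). With 1 read 0 of 50 genes passed, beside 1 of 256 (0.391%). The flank then had 9 genes with an unadjusted p under 0.05, beside 40 on the chromosome (15.6%).

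**Figure D4:**
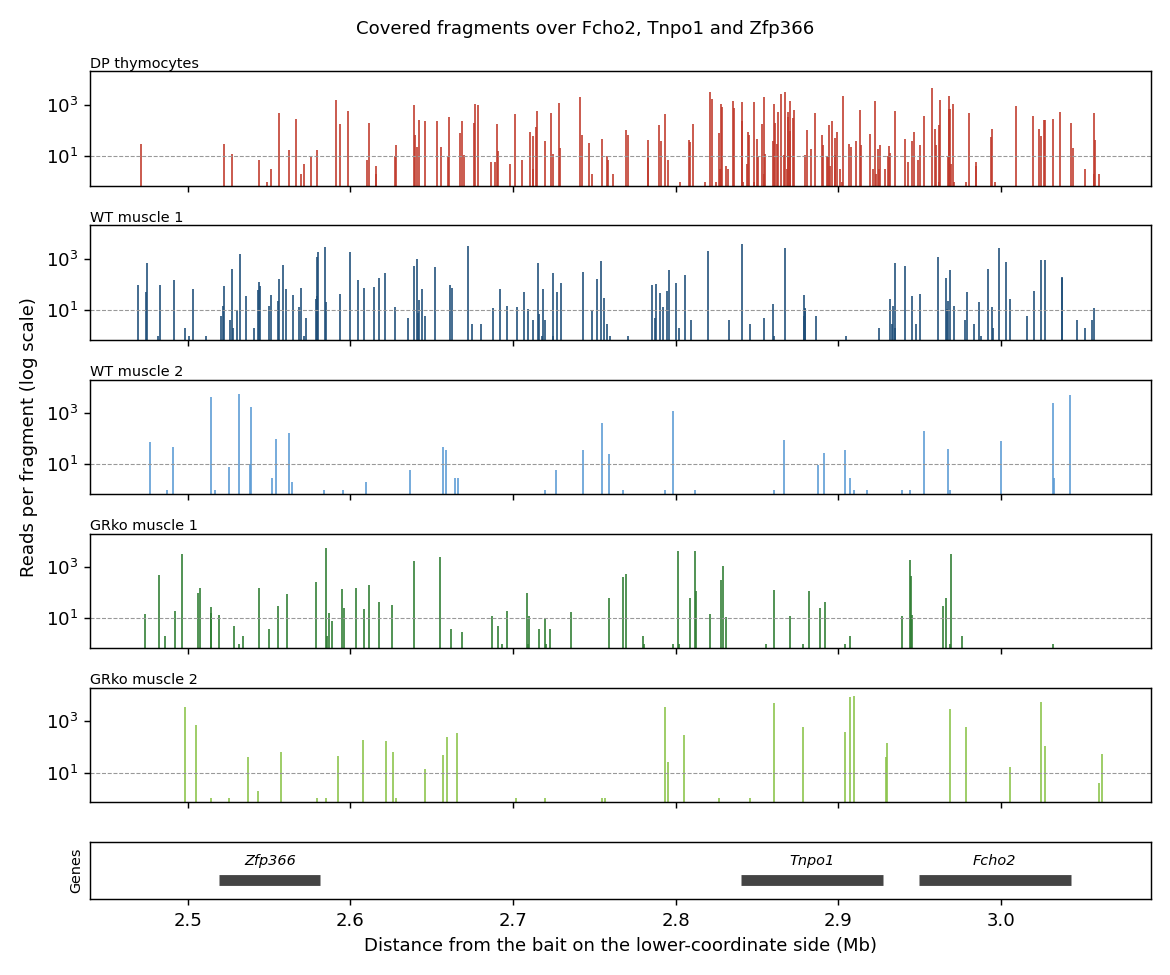
Reads of each covered fragment (vertical axis, log scale) by distance from the bait (horizontal axis, Mb) over Zfp366, Tnpo1 and Fcho2 in the 5 libraries, with the gene spans below; the dashed line marks 10 reads. Over Tnpo1 the thymocyte library has 59 covered fragments and the muscle libraries 6 to 13, while over Zfp366 the most, 28, are in WT muscle replicate 1.

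Among the fragments themselves few recurred. Of 20308 flank fragments 3646 were covered in any library, and 3192 of these in 1 library alone. Another 408 were covered in 2 libraries, 39 in 3, 5 in 4 and 2 in all 5. The 2 lie in Fcho2 (midpoint 98797630, with 673, 361, 1, 1 and 3136 reads in the order above) and in Tnpo1 (midpoint 98905860, with 1022, 1, 1, 127 and 5137 reads). Of the 10 values 4 are a single read, so these fragments were not captured well in every library. With a minimum of 10 reads 16 fragments were covered in 3 libraries and 0 in more. They include 1 in Cmya5 (midpoint 93070882, with 817, 85, 17, 0 and 0 reads) and 2 in Bdp1, a subunit of a transcription factor of RNA polymerase III. Covered fragments were longer-spaced than others, with a median spacing of 453 to 498 bp between neighbouring midpoints against 351 to 358 bp for fragments without a read. The fragment directly before or after, or both, was covered for 26.6% of covered fragments in thymocytes and for 15.5% of all fragments there. In WT replicate 1 these shares were 13.2% and 11.5%, and in the shallower libraries 4.41% to 5.74% and 3.08% to 5.04%. With 10 reads they were 18.9% and 11% in thymocytes, 10.1% and 8.46% in WT replicate 1, and 2.5% to 2.91% and 1.58% to 3.39% in the others.

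The muscle genes of the flank showed no difference that passed a test. Thbs4 had 7 covered fragments of 99 in DP thymocytes, 9 and 0 for WT and 4 and 3 for GRko muscle. Cmya5 had 20 of 258 in thymocytes, 19 and 5 for WT and 9 and 2 for GRko muscle, a log2 ratio of -0.25 ± 0.532 between thymocytes and WT (SE; edgeR, adjusted p = 0.878) and -0.28 ± 0.587 between GRko and WT (adjusted p = 0.982). Ckmt2, the mitochondrial creatine kinase of striated muscle, had 3, 5, 2, 1 and 2. Homer1, a scaffold protein of synapses and of muscle, had 36 of 221 in thymocytes, 13 and 7 for WT and 3 and 1 for GRko muscle. Both GRko libraries lay below both WT libraries in this number, which is not corrected for depth. As a share its log2 ratio was -1.45 ± 0.599 (SE; edgeR, adjusted p = 0.764), and it was the only flank gene with an unadjusted p under 0.05 between the genotypes with 1 read, beside 6.4% of all tested. With Jmy, an actin regulator, the list has 5 genes, of which 1 was above 0 in thymocytes over WT, and the median was -0.33. With 10 reads 4 were tested, 1 above 0 with a median of -0.52. Over all 256 genes tested with 1 read the median was 0.22 and 59.8% were above 0, and over all 197 tested with 10 reads 0.23 and 59.4%, which stand beside each list below.

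The list of genes of general cell upkeep, which mixes repair, RNA and translation genes with others such as Tnpo1, the tubulin folding gene Tbca and the centriole gene Poc5, had 14 of 17 members tested between thymocytes and WT with 1 read. Their median log2 ratio was 0.52, 10 were above 0 and 0 passed. With 10 reads 11 were tested, 8 of them above 0 with a median of 0.40. Bdp1 had 54 covered fragments in DP thymocytes, 16 and 8 for WT and 9 and 3 for GRko muscle, a log2 ratio of 1.15 ± 0.448 (SE; edgeR, adjusted p = 0.248). Gfm2 had 19, 5, 3, 3 and 3, a ratio of 1.21 ± 0.500 (adjusted p = 0.248). Zcchc9, a zinc finger gene at the far edge, had 9 covered fragments of 28 in thymocytes, 0 and 0 for WT and 1 and 0 for GRko muscle, too few for a fold. With 10 reads Tnpo1 was the 1 member that passed.

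Genes of lysosomes and sorting had all 7 members tested, 6 above 0 with a median of 0.39 with 1 read, 4 above 0 with a median of 0.40 with 10 reads, and 0 past the threshold. Serinc5, a multipass membrane protein, had 43 covered fragments of 255 in DP thymocytes, 12 and 7 for WT and 3 and 4 for GRko muscle, a ratio of 1.15 ± 0.416 (SE; edgeR, adjusted p = 0.246). Ap3b1, a subunit of an adaptor complex for sorting, had 45, 24, 16, 11 and 7. Iqgap2, which lies among F2r, F2rl1 and F2rl2 and is listed with them, had 82, 37, 10, 13 and 10 of 576, a ratio of 0.83 ± 0.425 (adjusted p = 0.384 by edgeR). The receptor genes F2r, F2rl1 and F2rl2 had 0 to 5 covered fragments in each library.

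Of 9 neural genes 4 were tested. With 1 read 1 was above 0, the median was -0.56, and 0 passed. With 10 reads 1 was above 0, with a median of -0.97. Map1b had 17 covered fragments of 232 in DP thymocytes, 21 and 11 for WT and 13 and 7 for GRko muscle, a log2 ratio of -0.92 ± 0.471 (SE; edgeR, adjusted p = 0.384). Pde8b had 12 of 495 in thymocytes, 24 and 7 for WT and 17 and 6 for GRko muscle, a ratio of -1.34 ± 0.579 (adjusted p = 0.275 by edgeR). With 10 reads the adjusted p of Map1b was 0.118 and that of Pde8b 0.121. Set against all 4 muscle libraries in place of WT, both passed in edgeR's test with 10 reads, with adjusted p = 0.0355 and 0.0342. With the replicate number as a block Pde8b passed with 1 read (adjusted p = 0.0186). Rasgrf2, a Ras exchange factor, had 29, 16, 8, 7 and 5, at 0.25 ± 0.417. Foxd1 had 0 in every library, over 4 fragments.

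The metabolic genes were sparse. Of 5 in the flank 3 were tested between thymocytes and WT, 1 of them above 0, with a median of -0.28. With 10 reads 2 were tested, 0 above 0, with a median of -1.25. Mccc2, of leucine breakdown, had 24, 20, 9, 7 and 3 covered fragments of 145, and Dmgdh, of choline breakdown, 8, 9, 1, 3 and 1 of 163. Between the genotypes 0 of 37 flank genes passed with 1 read, beside 0 of 172 on the chromosome (0.0%), 11 were above 0 (46.5% of all tested) and the median was -0.17, beside -0.04 over all tested. DESeq2 called 0. At the inner edge, the Naip genes have near-identical relatives close by, so short reads may be split between copies there, and their counts are uncertain.

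Thymocyte contacts lay inside coding genes more often. Coding gene spans hold 49.6% of the flank's fragments. Of the covered fragments 59.9% lay in them in DP thymocytes, 50.6% and 53.1% in WT, and 53.2% and 48.6% for GRko muscle, so thymocytes were above all 4. With 10 reads the values were 60.3%, 52.2%, 54.4%, 56.0% and 50.0%. The difference from WT was 8.00 points (exact two-sided permutation test, p = 0.333, the smallest possible) and that from all muscle 8.51 points (exact p = 0.2, the smallest possible), so a threshold of 0.05 is out of reach here. GRko differed from WT by -1.01 points (exact p = 1.0).

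Fragments in genes were covered 1.52 times as often as those outside in thymocytes, and 1.04, 1.15, 1.15 and 0.959 times in the muscle libraries. On the higher-coordinate side these ratios were 2.03, 1.71, 1.56, 1.96 and 1.22, higher than in the lower flank in each library. Beyond 10 Mb they were 2.17, 1.54, 1.44, 1.58 and 1.27, with thymocytes highest there too. Whether the tissues differ more in one region than in another was not tested.

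**Figure D5:**
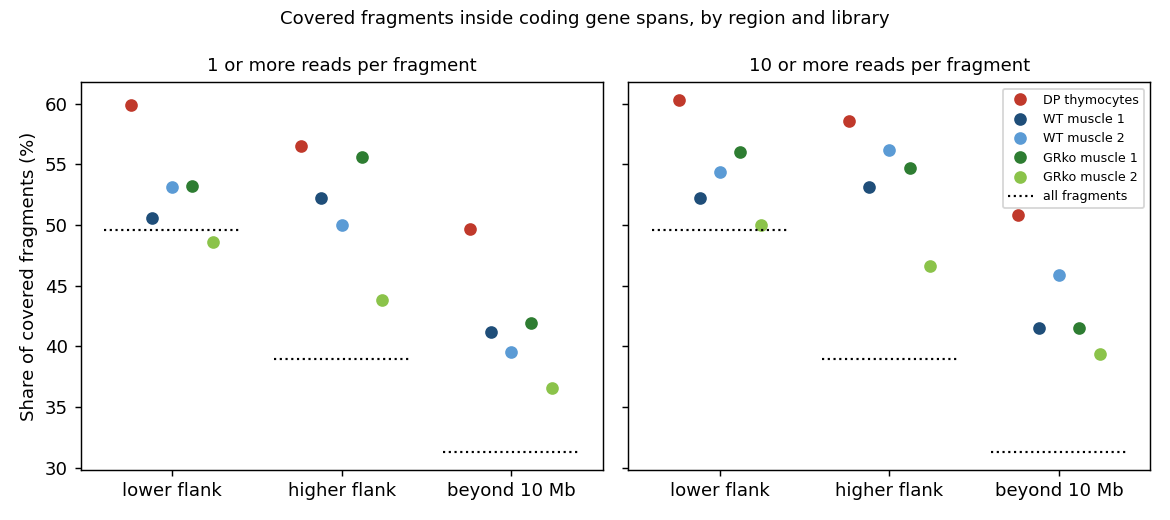
Share of covered fragments that lie inside coding gene spans (vertical axis, %, not starting at 0) in the lower flank, the higher flank and the chromosome beyond 10 Mb, with 1 or more (left) and 10 or more reads (right). Points are libraries and dotted lines the share among all fragments. In the lower flank thymocytes sit at 59.9% and 60.3%, above all 4 muscle libraries, which lie between 48.6% and 56.0%.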

How the data were processed

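The 5 libraries were made by 4C-seq from a Pik3r1 bait with DpnII and Csp6I. Each file holds, as deposited by the authors and per the file headers, the raw count of reads for every restriction fragment of chromosome 13, without normalization. The submitters' processing notes list bcl2fastq, Bowtie 1.0.0 and mm10. The assignment of reads to fragments was not given in the sources used here. Reads on the chromosome ranged from 1317351 in GRko replicate 2 to 8993436 in thymocytes. The first column was taken as the fragment midpoint, which held for all 344 whole fragments inside RefSeq promoters. Up to 3 fragments within 1247 bp of the bait were missing from some files.

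Without molecular identifiers PCR copies cannot be told from separate ligations, so fragments with at least 1 or 10 reads were counted in windows of 500 kb and over gene spans. The quasi-likelihood test of edgeR 4.0.16 in R 4.3.3 was applied to these numbers, with p-values adjusted by Benjamini-Hochberg over the chromosome beyond 1.5 Mb at 0.05, with covered fragments beyond 1.5 Mb as library size and features with a sum under 10 left out. GRko and WT were compared in 4 libraries, thymocytes and WT in a fit of all 5. Shares were compared by exact permutation tests, two-sided. Wilson intervals cover counting error only.

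The members and gene lists were chosen with earlier results of these data known; 67 of 70 listed names matched a coding gene of the flank. Windows named are those past the threshold, or else the 3 of smallest p in each direction, those with most and fewest covered fragments and those of Thbs4 and Cmya5; fragments named are those covered in most libraries; genes come from the lists, and 3 listed genes are not reported here. Examples among the genes, promoters and fragments covered 3 times with 10 reads were picked after their values were seen. Alternatives were TMM, DESeq2 1.42.0, no filter, other windows, reads in place of fragments, left-out replicates, all muscle and the replicate number as a block.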

Additional observations from a re-analysis of the deposited data

How the results depend on the processing

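The share of distant contacts in the flank changed sign with several settings, within differences no permutation test could call. GRko minus WT, -0.988 points, became 3.49 when reads replaced covered fragments and ranged from -3.89 to 1.91 with a replicate left out. Thymocytes minus WT, 1.06 points, became -1.45 with 10 or more reads, -0.639 with 2 or more, -0.944 with reads and -1.51 with read length, which coincides with the replicate number, as a block, and ranged from -1.51 to 3.63 with a replicate left out. The genotypes' difference in the lower share of both flanks, -2.77 points, became 3.37 with reads. That in the nearer windows, -1.73 points, became 0.923 with 10 reads and 0.656 with 2 (-5.37 to 1.9 with a replicate left out). Between thymocytes and WT, 0 windows called with 1 read became 4 with 10 reads, 4 with 2, 1 with windows of 250 kb, 1 with the replicate block and 1 against all muscle. The 0 genes called became 2 with 10 reads, 2 with 2 and 3 with the replicate block. With 10 reads, 4 windows became 0 with DESeq2 and 0 to 3 with a replicate left out, and 2 genes became 1 with the replicate block, 0 with DESeq2 and 0 to 1 with a replicate left out. The cause was not tested. No window or gene was called between the genotypes in any alternative run, and the gene share of thymocyte contacts stayed 6.75 to 9.26 points above WT in the 4 alternatives run. Deviations of WT and GRko libraries of equal number correlated at 0.292 over 225 windows; with 2 pairs this does not show pairing. The 2-read minimum, and the alternatives to the 10-read tests, were chosen after seeing the data. Depth limits these results: at most 8.25% of flank fragments were covered in a library.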
